A study of Mus musculus with 9 samples.

Results

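Fc receptors bind the constant part of antibodies and link antibody to the cells of the immune system. Most receptors for IgG send their signal through a small partner protein, the FcR gamma chain, whose cytoplasmic tyrosine motif (ITAM) recruits the kinase Syk, whereas the inhibitory receptor FcγRIIB carries a motif of its own (ITIM) that recruits phosphatases. In pDCs, the dendritic cells that release large amounts of type I IFN, the gamma chain also carries the signals of receptors that do not bind antibody, and Fc receptors can take up immune complexes with nucleic acid. The genes described here are 6 of the 52550 with deposited values, chosen by symbol for what they encode and not for their level. The choice was made with earlier results of these data known. The 6 genes are the mouse IgG receptor genes *Fcgr1*, *Fcgr2b*, *Fcgr3* and *Fcgr4*, the gamma chain gene *Fcer1g*, and *Fcgrt*, which encodes the neonatal Fc receptor (FcRn).

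The library was A/A replicate 1, made from splenic pDCs of homozygous *Ncf1*-KI mice. Their knocked-in allele encodes the change R90H in a subunit of the phagocyte NADPH oxidase. The strain is labelled C57BL/6, and the study's methods name C57BL/6J mice for the cross with the founders. The cells were sorted by FACS for intermediate CD11c with SiglecH and PDCA1, and were then kept for 12 hours with R848, a ligand of TLR7, at 10 μg/mL. The mice were 10 to 12 weeks old. The experiment had 9 samples, 3 from each of the genotypes G/G, G/A and A/A, of which the remaining 8 are not analysed here. No genotypes were compared for this reason, and no value has a replicate error. The 31408298 reads fell on 17664 genes, 33.6% of the 52550 in the table. Counts of list genes with reads are to be read beside this share. The level of a single gene is stated in CPM (its reads in every 1000000 of the library) with the Wilson 95% confidence interval. Levels of different genes are compared as reads per kilobase of merged exons, with exact Poisson intervals. Reads copied by PCR carried no molecular identifier and are not independent, so every interval covers counting error only. A gene without reads may have had up to 0.0955 CPM, the level of 3 reads.

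The library went against its description in 1 respect. The study's methods name female mice for all experiments, but the Y-linked genes *Ddx3y*, *Eif2s3y*, *Kdm5d* and *Uty* had 102, 86.1, 27.0 and 19.0 CPM, and *Xist*, which is transcribed from the inactive X chromosome, had no reads. A list of pDC markers was read in the same library. All 13 of 13 markers had reads, with a median of 374 CPM and a sum of 11153 CPM. *Irf8* had the most reads of them (2967 CPM). The list includes *Siglech* (374 CPM, the median gene) and *Bst2* (1657 CPM), the genes of the sort markers SiglecH and PDCA1. It is thus not independent of the sort. Reads on every gene were also found for the monocyte and macrophage list (15 of 15). *Itgax*, the gene of CD11c, had 38.5 CPM. The knocked-in gene *Ncf1* had 1079 CPM, and the values do not separate its alleles.

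All 6 genes had reads, and their levels spanned a wide range. *Fcer1g* stood far above the rest, *Fcgr1* was the main IgG receptor transcript, *Fcgrt* was intermediate, and *Fcgr4*, *Fcgr3* and *Fcgr2b* were low. In reads per kilobase, the order was *Fcer1g* (40069; 95% CI, 39650 to 40491), *Fcgr1* (2183; 2127 to 2241), *Fcgrt* (406; 379 to 434), *Fcgr4* (69.3; 55.5 to 85.4), *Fcgr3* (51.8; 41.7 to 63.7) and *Fcgr2b* (28.2; 24.0 to 32.8). The median of all genes with reads was 59.6 reads per kilobase. Thus 3 of the 6 genes were well above the typical transcribed gene, and the other 3 were near or below it. Of the neighbours in this order, *Fcgr4* and *Fcgr3* did not differ beyond counting error, with a ratio per kilobase of 1.34 (95% CI, 0.984 to 1.81). Fewer cells of a type and less RNA per cell cannot be told apart in a bulk library.

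**Figure D1:**
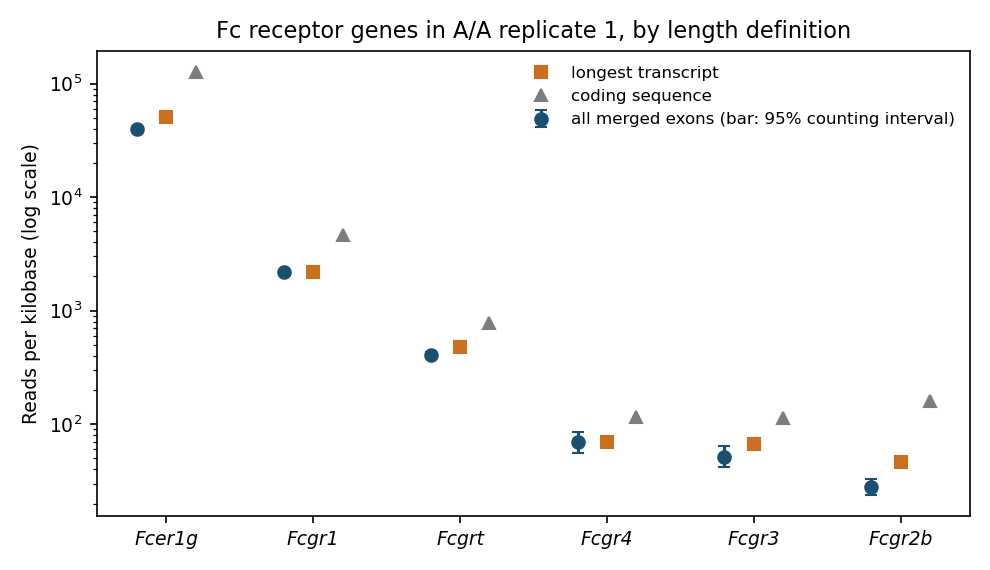
Reads per kilobase (log axis) of the 6 genes in A/A replicate 1, divided by the length of all merged exons, of the longest transcript or of the coding sequence; bars are 95% Poisson intervals of the merged-exon values. *Fcer1g*, *Fcgr1* and *Fcgrt* keep their order under each length, whereas *Fcgr2b* is the lowest gene by merged exons (28.2) and stands above *Fcgr3* and *Fcgr4* by coding sequence (159.8).

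*Fcer1g* (ENSMUSG00000058715.11, chr1:171229572-171234365, minus strand of GRCm38) encodes the gamma chain that the activating IgG receptors need for assembly and signalling. Its 35020 reads amounted to 1115 CPM (95% CI, 1103 to 1127). Per kilobase it ranked at percentile 99.8 of the 17632 genes with reads and an annotated length. The level of *Fcer1g* per kilobase was 17.4 times the summed level of *Fcgr1*, *Fcgr3* and *Fcgr4*, the IgG receptors that use it. Against *Fcgr1* alone the ratio per kilobase was 18.4 (95% CI, 17.8 to 18.9). The gamma chain transcript was therefore far more abundant than those of its IgG-binding partners, and this held for the other length definitions, which gave 22.1 and 25.9 times the sum.

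The activating receptors were led by *Fcgr1* (ENSMUSG00000015947.10, chr3:96282909-96293969, minus strand), which encodes FcγRI (CD64), the receptor with high affinity for monomeric IgG. Its level was 180.0 CPM from 5653 reads (95% CI, 175 to 185), and it ranked at percentile 95.7 per kilobase. *Fcgr3* (ENSMUSG00000059498.13, chr1:171051174-171064935, minus strand) encodes FcγRIII, a low-affinity receptor for immune complexes. Only 90 reads were counted for it, giving 2.87 CPM (95% CI, 2.33 to 3.52) and percentile 47.7 per kilobase. *Fcgr4* (ENSMUSG00000059089.4, chr1:171018920-171029761, plus strand) encodes FcγRIV, which binds IgG2a, IgG2b and IgG2c. Its 87 reads gave 2.77 CPM (95% CI, 2.25 to 3.42) and percentile 52.6 per kilobase. The *Fcgr1* level per kilobase was 31.5 times that of *Fcgr4* (95% CI, 25.5 to 39.4) and 42.1 times that of *Fcgr3* (95% CI, 34.2 to 52.5).

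The inhibitory receptor gene *Fcgr2b* (ENSMUSG00000026656.15, chr1:170958617-170976547, minus strand) was measured with 163 reads. This was 5.19 CPM (95% CI, 4.45 to 6.05), and it ranked at percentile 38.1 per kilobase. FcγRIIB is the only IgG receptor of the 4 with an ITIM, and it does not pair with the gamma chain. Its place among the low receptors depended on the length used, because its annotation has 7 transcripts whose merged exons cover 5790 bases, of which the longest transcript has 3544 and the longest coding sequence 1020. By merged exons, *Fcgr3* was 1.84 times as high as *Fcgr2b* per kilobase (95% CI, 1.41 to 2.40). By longest transcript the ratio was 1.45 (95% CI, 1.11 to 1.89). By coding sequence, a length added after the data were seen, it was 0.703 (95% CI, 0.537 to 0.915), so the order was reversed. *Fcgr4* over *Fcgr2b* went the same way, from 2.46 by merged exons to 0.729 by coding sequence. Which transcripts of *Fcgr2b* were present is not given by values per gene, and the order of the 3 low receptors is not settled by these data.

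As shares of the 5993 reads on the 4 IgG receptor genes, *Fcgr1* held 94.3% (exact binomial 95% CI, 93.7 to 94.9) and *Fcgr2b* 2.72% (95% CI, 2.32 to 3.16). *Fcgr3* and *Fcgr4* held 1.50% (95% CI, 1.21 to 1.84) and 1.45% (95% CI, 1.16 to 1.79). In levels per kilobase *Fcgr1* made up 93.6% of the total, so its lead did not rest on its length. The balance of activating (*Fcgr1*, *Fcgr3* and *Fcgr4*) to inhibitory (*Fcgr2b*) transcript was 81.9 per kilobase of merged exons, 50.4 by longest transcript and 30.6 by coding sequence. The activating side was nearly all *Fcgr1*. Without it the balance was 4.30, 2.96 and 1.43 in the same order.

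*Fcgr2b* and *Fcgr3* are paralogs with nearly the same extracellular sequence. Their coding sequences were identical at 83.9% of 784 aligned bases, against 58.6 to 63.5% for the other 5 pairs of IgG receptors. Of the 50-base windows of *Fcgr3* transcripts, 9.58% (166 of 1733) also occurred in *Fcgr2b*, and of those of *Fcgr2b*, 2.92% occurred in *Fcgr3*. Over all genes, 6.95% of the 50-base windows and 1.92% of the 150-base windows of *Fcgr2b* occurred elsewhere, but no 150-base window, the length of a read in the sequencing run, was shared by the pair. For *Fcgr1*, *Fcgr4*, *Fcer1g* and *Fcgrt*, 0% of windows of either size occurred in another gene. The longest identical run of the coding sequences, 129 bases, crosses from coding exon 3 into coding exon 4 in both genes. It is shown, from GENCODE M21 transcripts, as the longest stretch on which the pair is identical, with the identical run in capitals and 20 bases on each side in lower case. In *Fcgr2b* the printed 169 bases lie at chr1:170967980-170968101 and chr1:170966654-170966700, and in *Fcgr3* at chr1:171057691-171057812 and chr1:171054147-171054193, all on the minus strand of GRCm38.
Fcgr2b: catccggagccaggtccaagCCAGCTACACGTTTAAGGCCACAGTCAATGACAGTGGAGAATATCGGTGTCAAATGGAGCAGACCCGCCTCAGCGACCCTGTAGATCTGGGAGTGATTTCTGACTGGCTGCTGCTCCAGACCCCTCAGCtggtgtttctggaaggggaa
Fcgr3: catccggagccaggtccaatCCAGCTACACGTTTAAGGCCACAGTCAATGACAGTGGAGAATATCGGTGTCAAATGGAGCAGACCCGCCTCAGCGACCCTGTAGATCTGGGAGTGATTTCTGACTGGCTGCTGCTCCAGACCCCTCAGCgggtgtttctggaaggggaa
A whole read of 150 bases is longer than this run, and how trimmed reads or reads with mismatches were assigned to *Fcgr2b* and *Fcgr3* is not given in the sources used here.

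*Fcgrt* (ENSMUSG00000003420.8, chr7:45092990-45103851, minus strand) encodes the heavy chain of FcRn, which binds IgG and albumin in acidic endosomes and returns them to the cell surface. Its 854 reads gave 27.2 CPM (95% CI, 25.4 to 29.1) and percentile 81.3 per kilobase. *Fcgrt* was 5.87 times as high per kilobase as *Fcgr4* (95% CI, 4.70 to 7.40), and *Fcgr1* was 5.37 times as high as *Fcgrt* (95% CI, 5.00 to 5.78). FcRn is a heterodimer with β2-microglobulin, the light chain it shares with MHC class I. *B2m* had 12186 CPM and stood 1095 times above *Fcgrt* per kilobase (95% CI, 1024 to 1173).

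*Fcgr2b*, *Fcgr4*, *Fcgr3* and *Fcer1g* lie together on chromosome 1, within 275749 bases, while *Fcgr1* and *Fcgrt* are on other chromosomes. The interval holds 17 annotated genes of the table, of which 13 are not Fc receptor genes. Of these 13, 5 had reads. *Sdhc*, a subunit of respiratory complex II, had 82.6 CPM, and *Tomm40l*, *Cfap126*, *Apoa2* and *Nr1i3* had 18.1, 2.87, 0.955 and 0.669 CPM. The other 8, which include the coding gene *Pcp4l1*, had no reads. Position in this interval thus went with very different levels. Per kilobase *Fcer1g* (40069) was above *Sdhc* (798). The genes *Fcgr2b*, *Fcgr3* and *Fcgr4* (28.2 to 69.3) were near *Apoa2* (55.9) and *Cfap126* (50.7). Of the exon bases of *Fcgr2b*, 2.68% overlapped *Gm38204* on the opposite strand, which had no reads, and the exons of the other 5 Fc receptor and gamma chain genes overlapped none.

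**Figure D2:**
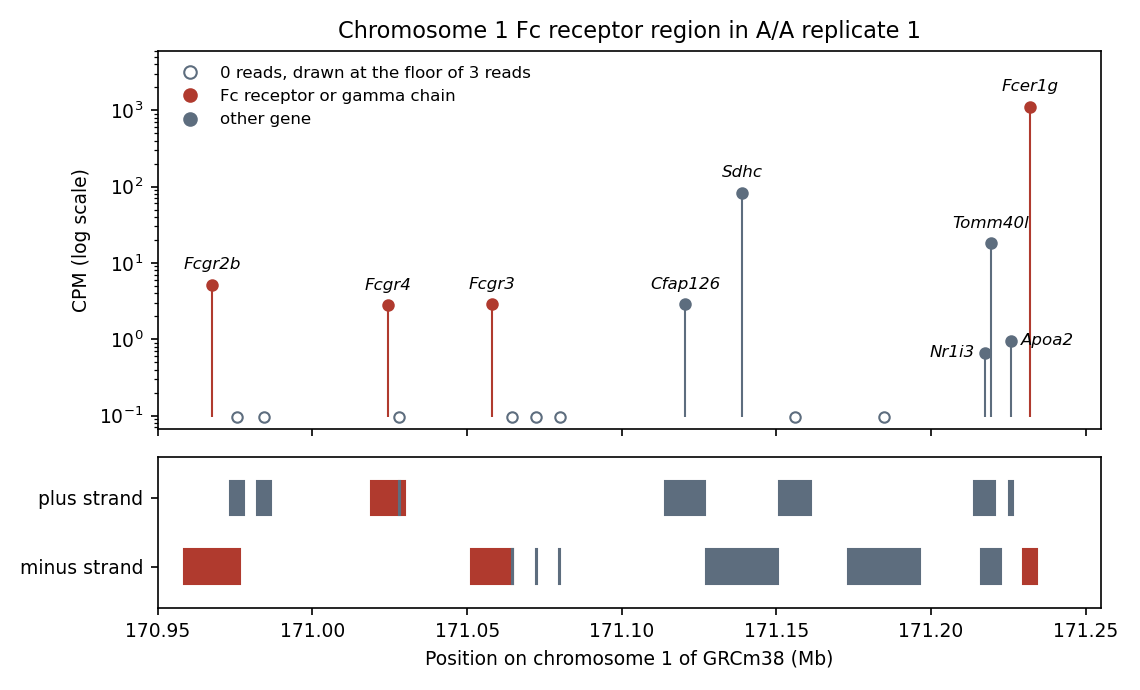
CPM (log axis) of each gene between *Fcgr2b* and *Fcer1g* on chromosome 1 (position in Mb of GRCm38) in A/A replicate 1, with gene spans by strand in the lower panel; open circles are genes without reads, drawn at the floor of 3 reads. *Fcer1g* (1115 CPM) and *Sdhc* (82.6 CPM) are the highest of the 17 genes, and *Fcgr2b*, *Fcgr3* and *Fcgr4* lie between 2.77 and 5.19 CPM.

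The gamma chain was set beside the other adaptors of its kind. All 5 had reads. By CPM their median (2.32) was below that of all genes with reads (6.34), but per kilobase it was above it, at 80.3 against 59.6. *Tyrobp*, which encodes the related adaptor DAP12, had 812 CPM and held 98.9% of the list's reads. *Fcer1g* was 1.05 times as high as *Tyrobp* per kilobase (95% CI, 1.03 to 1.06), a ratio that rose to 1.20 by longest transcript and to 2.09 by coding sequence (95% CI, 2.06 to 2.13). *Cd79b* and *Cd79a*, the signalling chains of the B cell receptor, had 3.69 and 2.32 CPM, and *Cd247*, the T cell receptor zeta chain, had 1.24 CPM, with 56.4% of its exon bases overlapped by *Pou2f1* on the opposite strand. *Hcst* (DAP10), which signals through a PI3-kinase motif and not an ITAM, had 1.85 CPM. The gap between *Fcer1g* and *Tyrobp* per kilobase thus depended on the length used, and the other 4 adaptors were far below both.

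Outside the Fc receptor family, other receptors also signal through the gamma chain or through DAP12, and both kinds were listed together. Of 21 listed, 19 were found in the table and 14 had reads. The median was 2.61 CPM over the 19 genes found and 11.0 CPM over the 14 with reads. *Siglech*, a pDC lectin that signals through DAP12, was the highest per kilobase (3469), followed by *Pira2* (2008), *Klrk1* (1121), *Lilra6* (879) and *Cd300c2* (678). By merged exons *Fcgr1*, at 2183, lay between *Siglech* and *Pira2*. By longest transcript *Klrk1* (2471) was above *Fcgr1* (2183), and by coding sequence the values were 11570 and 4664. *Fcer1g* was above each of the 5 under all 3 lengths. *Pira2*, *Lilra6* and the inhibitory *Pirb* are close paralogs whose reads may have been divided. *Oscar*, *Ncr1*, *Trem1*, *Siglec15* and *Lilra5* had no reads, and *Pira6* and *Pira12* were not matched.

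A list of other Fc receptors, Fc receptor-like genes and related genes, not all of which encode proteins known to bind antibody, was low beside *Fcgr1*. Reads were found for 9 of 14 genes, and the median over all 14 was 1.26 CPM. *Trim21*, a cytosolic IgG receptor and ubiquitin ligase, was the highest per kilobase (110), followed by *Cd300ld* (78.3), *Fcmr* (53.6), *Fcer1a* (52.1) and *Fcrl1* (41.6). By merged exons *Trim21* was above *Fcgr4* (69.3) and the last 3 lay between *Fcgr2b* and *Fcgr4*, while *Fcgr1* was above all 5 under each length. *Fcer2a*, *Fcrl6*, *Fcrlb*, *Fcrls* and *Pigr* had no reads.

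The genes that act after the ITAM of the gamma chain were well represented. All 28 kinases and adaptors had reads, against 33.6% of all genes in the table. Their median was 146 CPM, against 6.34 CPM for all genes with reads. Per kilobase their median percentile was 88.3. *Fyn* (5115), *Prkcd* (4980), *Grb2* (3773) and *Vav1* (2846) were among the highest per kilobase. *Syk*, the kinase that binds the phosphorylated ITAM, was named after its value was seen. It had 45.4 CPM and 152 reads per kilobase, between *Fcgrt* and the low IgG receptors by merged exons.

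The 12 phosphatases and other brakes on signalling that were listed beside *Fcgr2b* all had reads and a median of 23.7 CPM. Not all of them are recruited by an ITIM. *Ptpn6* (SHP-1) was the highest per kilobase (12681), followed by *Dok1* (2417), *Inpp5d* (783), *Csk* (186) and *Cbl* (185). *Inpp5d* encodes SHIP1, the phosphatase that FcγRIIB recruits, and its level per kilobase was well above that of *Fcgr2b*. Of 16 other inhibitory receptors with an ITIM, 15 were found and 14 had reads. The median was 67.5 CPM over the 15 found and 70.0 CPM over the 14 with reads. *Lilrb4a* was the highest per kilobase (8344), then *Pirb* (6661), *Cd300a* (1427), *Lair1* (1341) and *Ceacam1* (757). The symbol *Lilrb4a* stands on more than a single row of the deposited table, and the row whose identifier has that name in GENCODE M21 was used. *Siglece* had no reads, *Lilrb4b* was not matched, and 35.3% of the exon bases of *Lilrb4a* overlapped *Gm49339* on the same strand. *Fcgr2b* (28.2) was thus low beside the leading ITIM receptors of the same library.

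**Figure D3:**
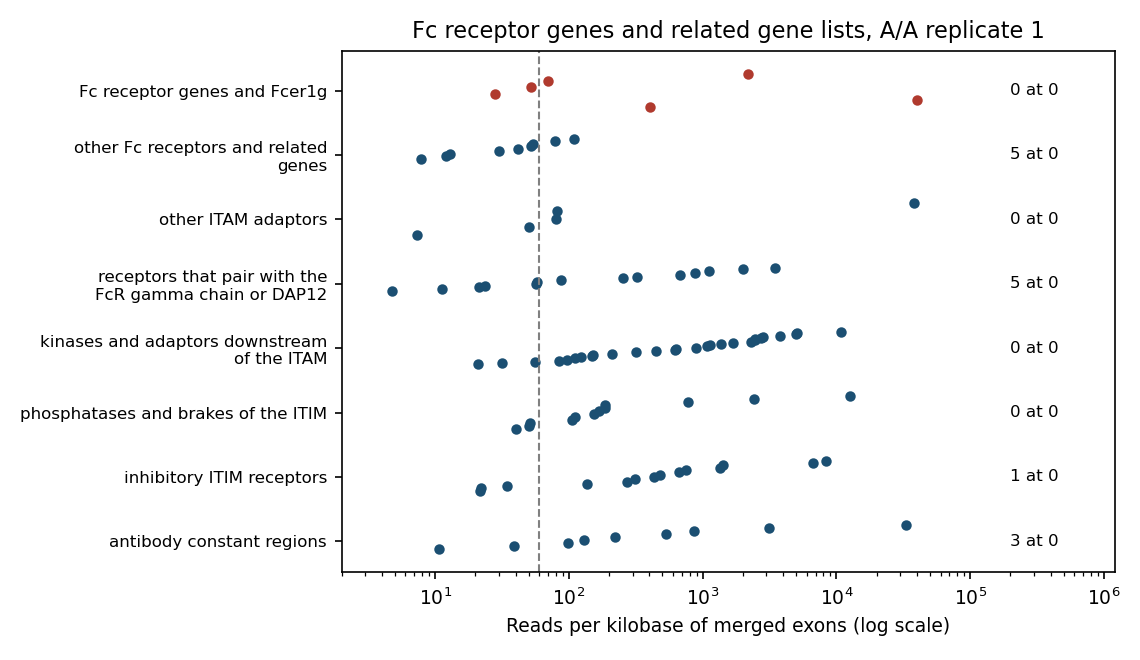
Reads per kilobase of merged exons (log axis) of the 6 genes (top row) and of the genes of each related list in A/A replicate 1; each point is a gene, the dashed line is the median of all genes with reads (59.6), and genes without reads are counted at the right. *Fcer1g* and *Tyrobp* lie near 40069 and 38253, and the low IgG receptors lie near the dashed line.

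Antibody genes were also measured. Their list is wider than IgG, the ligand of the receptors described here, and includes the heavy chain genes of other antibody classes. Of 12 constant region and joining chain genes, 9 had reads. The median was 2.82 CPM over all 12 and 13.4 CPM over the 9 with reads. *Ighm* had 1974 CPM and 92.7% of the list's reads. Per kilobase it was followed by *Igkc* (3145), *Ighg2c* (864), *Ighg2b* (534) and *Ighd* (222). Transcripts of the constant regions of IgG2b and IgG2c, both ligands of FcγRIV, were thus found beside those of the receptors, whereas *Ighg1*, *Igha* and *Jchain* had no reads. Values per gene do not separate germline transcripts from those of rearranged antibody genes.

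Several other cell types of the spleen also express Fc receptors, and their markers were read in the same library. The monocyte and macrophage list, for cells rich in IgG receptors, had reads on 15 of 15 genes, a sum of 887 CPM and a median of 12.7 CPM. *Cd68* had the most reads (298 CPM), followed by *Lyz2* (207 CPM), *Ccr2* (127 CPM) and *Spic* (103 CPM). No gene of the list was at 0, and the lowest was *Itgam* (1.05 CPM), with 68.7% of its exon bases overlapped by *Gm49368* on the same strand. The macrophage genes *Adgre1* and *Mertk* had 25.1 and 1.72 CPM. The part of these cells in the levels of *Fcgr1*, *Fcgr3*, *Fcgr4* and *Fcer1g* was not tested. The conventional DC list had reads on 9 of 10 genes, a sum of 2240 CPM and a median of 89.8 CPM. *Ccl22* had the most reads (1347 CPM), followed by *Fscn1* (428 CPM) and *Id2* (145 CPM). *Flt3*, which pDCs also express, *Zbtb46* and *Clec9a* had 135, 106 and 73.9 CPM. *Clec10a*, *Xcr1* and *Batf3* were low, at 2.36, 1.72 and 1.53 CPM, and *Cd209a* was at 0. The part of conventional DCs in the Fc receptor levels was not tested either.

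The neutrophil list, for cells that express *Fcgr3* and *Fcgr4*, had reads on 6 of 10 genes and a sum of 37.3 CPM. *S100a8* had the most reads (14.7 CPM), followed by *S100a9* (9.62 CPM) and *Ngp* (9.42 CPM), and *Ly6g*, *Elane*, *Mpo* and *Retnlg* were at 0. NK cells, whose Fc receptor is FcγRIII, were represented by 2 of 8 genes and a sum of 258 CPM. Nearly all of that was *Klrk1* (256 CPM), *Klre1* had 1.24 CPM, and *Ncr1*, *Klrb1c*, *Prf1*, *Gzma*, *Eomes* and *Klra8* were at 0. B cells carry FcγRIIB as their IgG receptor. Their list had reads on 6 of 10 genes and a sum of 1998 CPM, of which *Ighm* held 98.8%, and *Pax5*, *Cr2*, *Fcer2a* and *Jchain* were at 0. The mast cell and basophil list, for cells that use the gamma chain in the IgE receptor, had reads on 6 of 9 genes and a sum of 59.6 CPM. *Hdc* had the most reads (33.7 CPM), followed by *Mcpt8* (12.6 CPM), a defining basophil gene, and *Cpa3* (8.88 CPM). *Fcer1a* had 1.66 CPM, and *Tpsab1*, *Cma1* and *Mrgprb2* were at 0. The part of neutrophils, NK cells, B cells, mast cells and basophils in the low receptor levels was not tested.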

How the data were processed

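The signal values that the authors deposited, 1 per gene, are normalized and carry no stated unit. The submitters' processing notes name HISAT2, StringTie and the builds mm8 and mm10 without roles; the annotation, the counting and the use of strand are not given in the sources used here. The paper names DESeq2 as the authors' tool for comparing genotypes. All values above 0 (100%, within 0.01 read) were whole multiples of 1.19, the form of read counts divided by a library factor (0.839), so reads were recovered by division. The division was run on 3 simulated libraries of whole counts divided by a factor, where the lowest percent of reads per gene recovered was 100%. These libraries had the assumed form by construction, so they check the arithmetic only. Whether the deposited values began as read counts was not tested, and every interval rests on that assumption. The deposited length is the genomic span and was not used. Gene identifiers were matched to GENCODE M21 (GRCm38) for 99.7% of genes, and 95.2% of those had identical coordinates. Exon, transcript and coding lengths and shared windows came from that annotation. Coding sequences were aligned end to end with Biopython 1.88, with end gaps penalised after a first run without that penalty left a pair almost unaligned. Intervals came from scipy 1.17.1. Tables were handled in pandas 2.3.3 and numpy 2.4.6 under Python 3.11.15, and figures drawn in matplotlib 3.10.9. The genes and lists were chosen with earlier results of these data known. Named genes were the 6 Fc receptor and gamma chain genes, the 5 highest per kilobase of each list, genes at 0 where few, every gene of lists of 5 or fewer, and the sex-linked genes. Some genes under this rule are not reported here. Other exceptions are stated, and genes of marker lists were named by reads and as defining markers. No statistical test was run on the levels.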

Additional observations from a re-analysis of the deposited data

How the results depend on the processing

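No paired analysis was possible because a single library was analysed here. Without the 10 genes with most reads (9.74% of the total), CPM was 1235 for *Fcer1g*, 199 for *Fcgr1* and 30.1 for *Fcgrt*, higher by construction, and 3 genes stayed within their intervals. Without mitochondrial sequence (0.466%) all 6 did. By longest transcript, reads per kilobase were 51274 for *Fcer1g*, 482 for *Fcgrt*, 66.8 for *Fcgr3* and 46.0 for *Fcgr2b*. By coding sequence, added after seeing the data, they were 126884 for *Fcer1g*, 4664 for *Fcgr1*, 771 for *Fcgrt*, 159.8 for *Fcgr2b*, 116 for *Fcgr4* and 112 for *Fcgr3*; shorter lengths raise each value by construction. The planned coding length from a protein table was not run, as no such table was used here. The *Fcgr1* share was 93.6% per kilobase and 97.0%, 95.8% and 95.7% without *Fcgr2b*, *Fcgr3* or *Fcgr4* in the total. The activating to inhibitory ratio was 50.4 by longest transcript and 30.6 by coding sequence, and without *Fcgr1* it was 4.30, 2.96 and 1.43; these were added after seeing the data. Over genes with reads, and over genes with at least 10 reads, the list medians were 11.0 CPM for receptors pairing with the gamma chain or DAP12 and 13.4 CPM for antibody constant regions; the other 6 related lists stayed within counting error. Percentiles by CPM rose over all genes and fell over genes with at least 10 reads, for 6 of 6 genes, by construction. With a pseudocount of 0.1 in place of 1 CPM, the log2 levels of 3 genes fell beyond counting error. Depth limited *Fcgr3* and *Fcgr4*, with 90 and 87 reads.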

Other observations

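The remaining marker lists gave these values. The T cell list had reads on 5 of 10 genes and a sum of 392 CPM, of which *Cd8a* had 332 CPM. *Cd8b1*, *Cd4*, *Lat* and *Trac* had 35.1, 19.5, 4.9 and 0.509 CPM, and *Cd3e*, *Cd3d*, *Cd3g*, *Bcl11b* and *Trbc1* were at 0. The paper describes mouse pDC subsets that carry CD8α and CD8β, so *Cd8a* and *Cd8b1* do not mark T cells alone. The platelet and erythroid list had reads on 4 of 8 genes and a sum of 4.27 CPM, led by *Hba-a1* (2.83 CPM), and *Ppbp*, *Gp9* and *Hbb-bs* were among those at 0.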
